A study of Mus musculus with 12 samples.

Results

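The genes described here encode the structural proteins of the extracellular matrix in mouse D3 embryonic stem cells: collagen chains, laminin chains, and the matrix proteins fibronectin (Fn1), Sparc, nidogen (Nid1 and Nid2), perlecan (Hspg2) and agrin (Agrn). Members were the probe sets whose annotated symbol is a collagen chain (Col, a number, a and a number), a laminin chain (Lam, then a, b or c and a number) or one of those 6 names, and each gene was read on its brightest probe set over all arrays. This gave 58 genes of the 18193 genes with a symbol of their own on the array. Of these, 43 were bright enough to be tested (a mean log2 signal over 12 arrays above that of a signal of 7.52, the filter signal), among 12737 genes tested, and 15 were not. The cells were cultured for 7 days in medium with 15% serum. There were 3 arrays in each of 4 conditions: no LIF with lithium (LIF-free+Li), no LIF (LIF-free), LIF with lithium (LIF+Li) and LIF alone (LIF). LIF (leukaemia inhibitory factor, a cytokine that keeps such cells self-renewing) was given at 1000 units per ml, and the labels state the lithium as 50 nM. D3 is 1 cell line, the labels call the 3 arrays of a condition biological replicates without saying which cultures or days they share, and the p-values therefore measure the spread between these arrays only.

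Basement membranes are thin sheets of matrix to which epithelial cells attach. Laminins are trimers of an alpha, a beta and a gamma chain that assemble on the cell surface, type IV collagen trimers form a covalent network beside them, and nidogens, perlecan and agrin join the networks to each other or to cell receptors. In the early mouse embryo the primitive endoderm and its parietal descendants lay down much of this matrix. Fibrillar collagens (types I, II, III, V and XI among them) form the banded fibrils of connective tissue and cartilage, and type V chains co-assemble with type I chains. Sparc is a secreted calcium- and collagen-binding glycoprotein, and fibronectin is a cell-adhesive protein that is assembled into fibrils through integrins.

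The values are deposited MAS5 signals, a summary brightness per probe set on a linear scale, and the number of arrays limits their precision. The median signal of an array lay between 10.5 and 19.3, and the log2 values of any array pair correlated at 0.875 to 0.953. Embryonic stem cell markers were present in all conditions, with 10 of 10 tested, and 9 of the 10 were lower without LIF. Their summed signal ranged over 9824 to 14656 in LIF-free+Li, 12024 to 15067 in LIF-free, 23243 to 24405 in LIF+Li and 19695 to 31176 in LIF cultures, so the withdrawal comparisons below are also comparisons of cultures that differ in those markers. The 9 were called lower in the comparison averaged over lithium, where 13.5% of all genes tested were lower. In both lithium comparisons 0 of the 10 were called (limma), where 0% of all genes tested were. The ratio of the Gapdh 3' to 5' control probes averaged 0.773 on the 6 arrays without LIF and 0.824 on the 6 with LIF, that of actin 1.58 and 1.76, and the 18S control signal 635 and 356, whose part in the results was not tested. In bulk RNA, fewer cells that make a transcript and less transcript per cell cannot be told apart.

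Averaged over lithium, removal of LIF was accompanied by higher type IV collagen (Col4a1, Col4a2 and Col4a5), agrin and Sparc, and by lower laminin alpha 1 (Lama1) and nidogen 2. Among collagens outside the basement membrane, Col5a1, Col3a1, Col1a1, Col2a1, Col6a1 and Col9a1 were higher, while the type V partners Col5a2 and Col5a3 were lower. Fn1, Lama5, Lamb1 and Lamc1 did not pass the test. In all, 11 of the 43 tested members were higher and 4 were lower (limma, Benjamini-Hochberg adjusted p under 0.05 over 27022 probe sets). Arithmetic means of both sides were above the filter signal for 9 of the 11. Among these, Col9a1 lay just under it with LIF on the mean log2 scale that the filter used. Of all genes tested, 17.4% were higher and 13.5% lower in that comparison (30.9% in either direction), so the number of members called was near the background and is not a result about matrix genes. The 6 arrays without LIF did not overlap the 6 with LIF for 5 tested members, all higher (Sparc, Col5a1, Col4a5, Agrn and Col6a1), where 10.7% of all genes tested were higher and 7.62% lower without overlap. The median log2 change over the 43 was 0.45, beside 0.027 over all genes tested. Lithium, with or without LIF, gave no call in any member, where 0% of all genes tested were called.

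Of the 6 type IV collagen chains, 4 were tested, 3 rose without LIF in the averaged comparison and none fell. Of all genes tested, 17.4% rose and 13.5% fell. Col4a1 and Col4a2 encode the chains of the common type IV trimer, from a pair of genes whose starts lie 21 bases apart on opposite strands. The Col4a1 signal was 749, 853 and 849.7 in LIF-free+Li cultures and 890.3, 1024 and 665 in LIF-free cultures, against 722, 469 and 720.4 in LIF+Li cultures and 672, 519.9 and 504 in LIF cultures. Its averaged log2 change was 0.49 (95% interval 0.19 to 0.79, limma adjusted p = 0.0215), or 1.40-fold. The highest LIF+Li and LIF arrays reached above the lowest LIF-free array, so the 6 arrays without LIF overlapped the 6 with LIF. Col4a2 had signals of 349, 445 and 291 in LIF-free+Li cultures and 358, 409.6 and 252 in LIF-free cultures, against 263, 204 and 214 in LIF+Li cultures and 270.0, 197 and 233 in LIF cultures. It was 1.51-fold higher without LIF (log2 change 0.59, 95% interval 0.27 to 0.91, limma adjusted p = 0.0108), again with overlap of single arrays. Both calls ended when each array was centred on its own median (adjusted p = 0.207 for Col4a1 and 0.0753 for Col4a2). Col4a1 also missed the threshold without the intensity trend in the fit (0.0528) and without LIF-free+Li replicate 2 (0.0514), LIF-free replicate 2 (0.0601), LIF+Li replicate 2 (0.0515) or LIF replicate 2 (0.0533).

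Col4a5 encodes a chain of other type IV trimers and had the largest fold among the tested basement membrane genes. Its signal was 66.1, 50.5 and 52.6 in LIF-free+Li cultures and 59.0, 71.5 and 45.3 in LIF-free cultures, against 25.9, 11.6 and 8.41 in LIF+Li cultures and 32.0, 15.2 and 11.8 in LIF cultures. All 6 arrays without LIF were above all 6 arrays with LIF, and replicate 1 was the highest array of LIF+Li and of LIF. The averaged change was 3.64-fold (log2 1.86, 95% interval 1.20 to 2.53, limma adjusted p = 0.000871). Its neighbour Col4a6 starts 1343 bases away on the opposite strand, and the Col4a6 product joins a trimer with the Col4a5 chain. Col4a6 changed by -0.088 on the log2 scale (95% interval -0.94 to 0.76, limma adjusted p = 0.908). Its signals were 3.06 to 20.8 on arrays without LIF and 9.83 to 16.2 on arrays with LIF. The difference between the changes of this pair was not tested. Col4a3 and Col4a4, whose chains are part of the trimer of the kidney filter, did not exceed 9.13 and 6.35 on any array and were not tested.

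The windows upstream of the genes called in all 3 withdrawal comparisons (Sparc, Col5a1 and Col4a5) are printed with that of Col4a6, the uncalled neighbour of Col4a5. Each runs from base 250 to base 51 before the annotated start in RefSeq (build GRCm38.p6) on the gene's own strand, and capitals mark a GC box (GGGCGG on either strand) or a CCAAT box (CCAAT on either strand). They are Sparc at chr11:55420131-55420330 (minus strand), Col5a1 at chr2:27886175-27886374 (plus strand), Col4a5 at chrX:141475169-141475368 (plus strand) and Col4a6 at chrX:141474127-141474326 (minus strand).
Sparc: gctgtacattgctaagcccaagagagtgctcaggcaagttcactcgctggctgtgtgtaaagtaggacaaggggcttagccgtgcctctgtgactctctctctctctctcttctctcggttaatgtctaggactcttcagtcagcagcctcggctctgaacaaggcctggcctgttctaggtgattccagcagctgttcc
Col5a1: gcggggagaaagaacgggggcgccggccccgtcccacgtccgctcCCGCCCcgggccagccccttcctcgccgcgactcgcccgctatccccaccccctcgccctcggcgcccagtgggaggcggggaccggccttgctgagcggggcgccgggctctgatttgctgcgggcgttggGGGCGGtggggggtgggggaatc
Col4a5: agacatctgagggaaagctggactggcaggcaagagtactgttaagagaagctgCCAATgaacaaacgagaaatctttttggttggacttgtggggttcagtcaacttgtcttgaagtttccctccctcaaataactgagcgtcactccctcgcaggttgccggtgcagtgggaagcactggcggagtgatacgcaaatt
Col4a6: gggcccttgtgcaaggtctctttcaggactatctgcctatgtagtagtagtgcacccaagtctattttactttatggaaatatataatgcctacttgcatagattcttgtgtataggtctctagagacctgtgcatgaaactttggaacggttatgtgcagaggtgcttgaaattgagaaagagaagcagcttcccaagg
Col5a1 has 2 GC boxes in its window, Col4a5 has 1 CCAAT box, and the windows of Sparc and Col4a6 hold neither motif in these 200 bases. No printed window holds both motifs. Of 32851 such windows in the table, 24.6% hold a GC box and 28.4% a CCAAT box. The table matched 42 of the 58 members, and of their 47 windows 22 hold a GC box and 12 a CCAAT box. No motif is shared by the 3 called genes in these windows, and a match of letters is not a binding site.

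Of the 10 laminin chains, 8 were tested, none rose and 1 fell, where 17.4% and 13.5% of all genes tested did. Lama1 encodes the alpha chain of the laminin that embryonic basement membranes first contain. Its signal was 87.7, 122 and 117 in LIF-free+Li cultures and 198, 93.7 and 148 in LIF-free cultures, against 340.2, 208 and 280.3 in LIF+Li cultures and 326, 241 and 192 in LIF cultures. Every LIF-free+Li array was below every LIF+Li array, while the highest LIF-free array was above the lowest LIF array. Lama1 was 2.10-fold lower without LIF (log2 -1.07, 95% interval -1.50 to -0.64, limma adjusted p = 0.00182), and the call held whichever array was left out. Its partner chains did not pass the test. The beta chain Lamb1 had signals of 1126, 1285 and 1123 in LIF-free+Li cultures and 1215, 1171 and 1118 in LIF-free cultures, against 1144, 978 and 1094 in LIF+Li cultures and 1124, 1141 and 443 in LIF cultures. The other 11 arrays lay between 978 and 1285, and LIF replicate 3 stood apart at 443. The averaged change of Lamb1 was 0.32 (adjusted p = 0.271), and the change without lithium, 0.50 with all arrays, was 0.04 without that array. The gamma chain Lamc1 had signals of 191, 191 and 178 in LIF-free+Li cultures and 217, 220.4 and 135 in LIF-free cultures, against 238, 221 and 176 in LIF+Li cultures and 252, 211 and 363 in LIF cultures, a change of -0.35 (95% interval -0.70 to -0.0048, adjusted p = 0.135). Here too LIF replicate 3 was apart from its group, this time as the highest of all 12 arrays.

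Lama5, the alpha chain of the laminin most widespread in later epithelia, had signals of 182, 198 and 157 in LIF-free+Li cultures and 139, 182 and 128 in LIF-free cultures, against 172, 171 and 101 in LIF+Li cultures and 167, 174 and 202 in LIF cultures. The groups overlapped in every comparison and its averaged change was 0.012 (95% interval -0.32 to 0.34). Lamb2, a beta chain of muscle and kidney basement membranes, ranged over 35.1 to 64.1 without LIF and 38.1 to 48.5 with LIF, with a change of 0.16. The epithelial chains Lama3 and Lamb3 and the gamma chain Lamc3 were dim, with highest signals of 34.5, 28.5 and 16.9, and gave log2 changes of -0.99, 0.97 and 1.02 with adjusted p of 0.148, 0.244 and 0.108. Lama2 and Lama4, alpha chains of muscle and blood vessel laminins, were not tested.

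Of the 6 linker and proteoglycan genes, 5 were tested, Agrn rose and Nid2 fell, where 17.4% and 13.5% of all genes tested did. Agrin is a heparan sulphate proteoglycan that binds laminin and dystroglycan. Agrn had signals of 577, 563 and 587 in LIF-free+Li cultures and 473, 631 and 403 in LIF-free cultures, against 378, 342 and 207 in LIF+Li cultures and 395, 349 and 289.6 in LIF cultures. All 6 arrays without LIF were above all 6 with LIF, with 403 as the lowest value without LIF and 395 as the highest with LIF. The averaged change was 1.67-fold (log2 0.74, 95% interval 0.40 to 1.07, limma adjusted p = 0.00407), and it was called whichever array was left out. Nidogens bridge laminin and type IV collagen. Nid2 had signals of 324, 592 and 656 in LIF-free+Li cultures and 397, 553 and 511 in LIF-free cultures, against 672, 765 and 679 in LIF+Li cultures and 581, 852 and 789 in LIF cultures and was 1.46-fold lower without LIF (log2 -0.55, 95% interval -0.91 to -0.18, limma adjusted p = 0.0308). That call ended on median-centred arrays (adjusted p = 0.133), without the intensity trend (0.0679) and without LIF-free+Li replicate 1 (0.0506), LIF-free replicate 1 (0.0753), LIF+Li replicate 2 (0.072), LIF+Li replicate 3 (0.0536), LIF replicate 2 (0.0789) or LIF replicate 3 (0.0583). Nid1 had signals of 542, 424 and 397 in LIF-free+Li cultures and 447, 513 and 288 in LIF-free cultures, against 522, 510.4 and 675 in LIF+Li cultures and 529, 567 and 636 in LIF cultures, with a change of -0.42 (95% interval -0.73 to -0.11) and an adjusted p of 0.0509, which just missed the threshold.

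Perlecan (Hspg2), a large heparan sulphate proteoglycan, had signals of 213, 233 and 98.3 in LIF-free+Li cultures and 137, 148 and 118 in LIF-free cultures, against 137, 104 and 61.4 in LIF+Li cultures and 112, 120.5 and 149.9 in LIF cultures. Replicate 3 was the lowest array in LIF-free+Li, LIF-free and LIF+Li cultures and the highest in LIF cultures. Its averaged change was 0.45 (95% interval -0.05 to 0.95, limma adjusted p = 0.186). Col18a1, the basement membrane collagen that releases endostatin, had signals of 468, 775 and 999 in LIF-free+Li cultures and 510.1, 786 and 819.6 in LIF-free cultures, against 389.6, 643 and 352 in LIF+Li cultures and 434, 624 and 587 in LIF cultures. Replicate 1 was the lowest array in 3 of the 4 conditions, and the averaged change of 0.51 (95% interval 0.066 to 0.96) did not pass the test (adjusted p = 0.0909). Col15a1, a related collagen of vessel and muscle basement membranes, was not tested.

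Parietal and primitive endoderm, the embryonic source of such matrix, was followed by 12 markers, all tested, of which 4 were higher without LIF (Cited1, Sox17, Plat and Snai1) and 1 lower (Srgn), where 17.4% and 13.5% of all genes tested were. Their summed signal ranged over 1090.2 to 1304 in LIF-free+Li, 1277 to 1680.2 in LIF-free, 692 to 1488 in LIF+Li and 650 to 1389 in LIF cultures. The endoderm factors Gata6 and Gata4 were not called (log2 0.45 and -0.12). The part of such cells in the basement membrane changes was not tested.

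**Figure D1:**
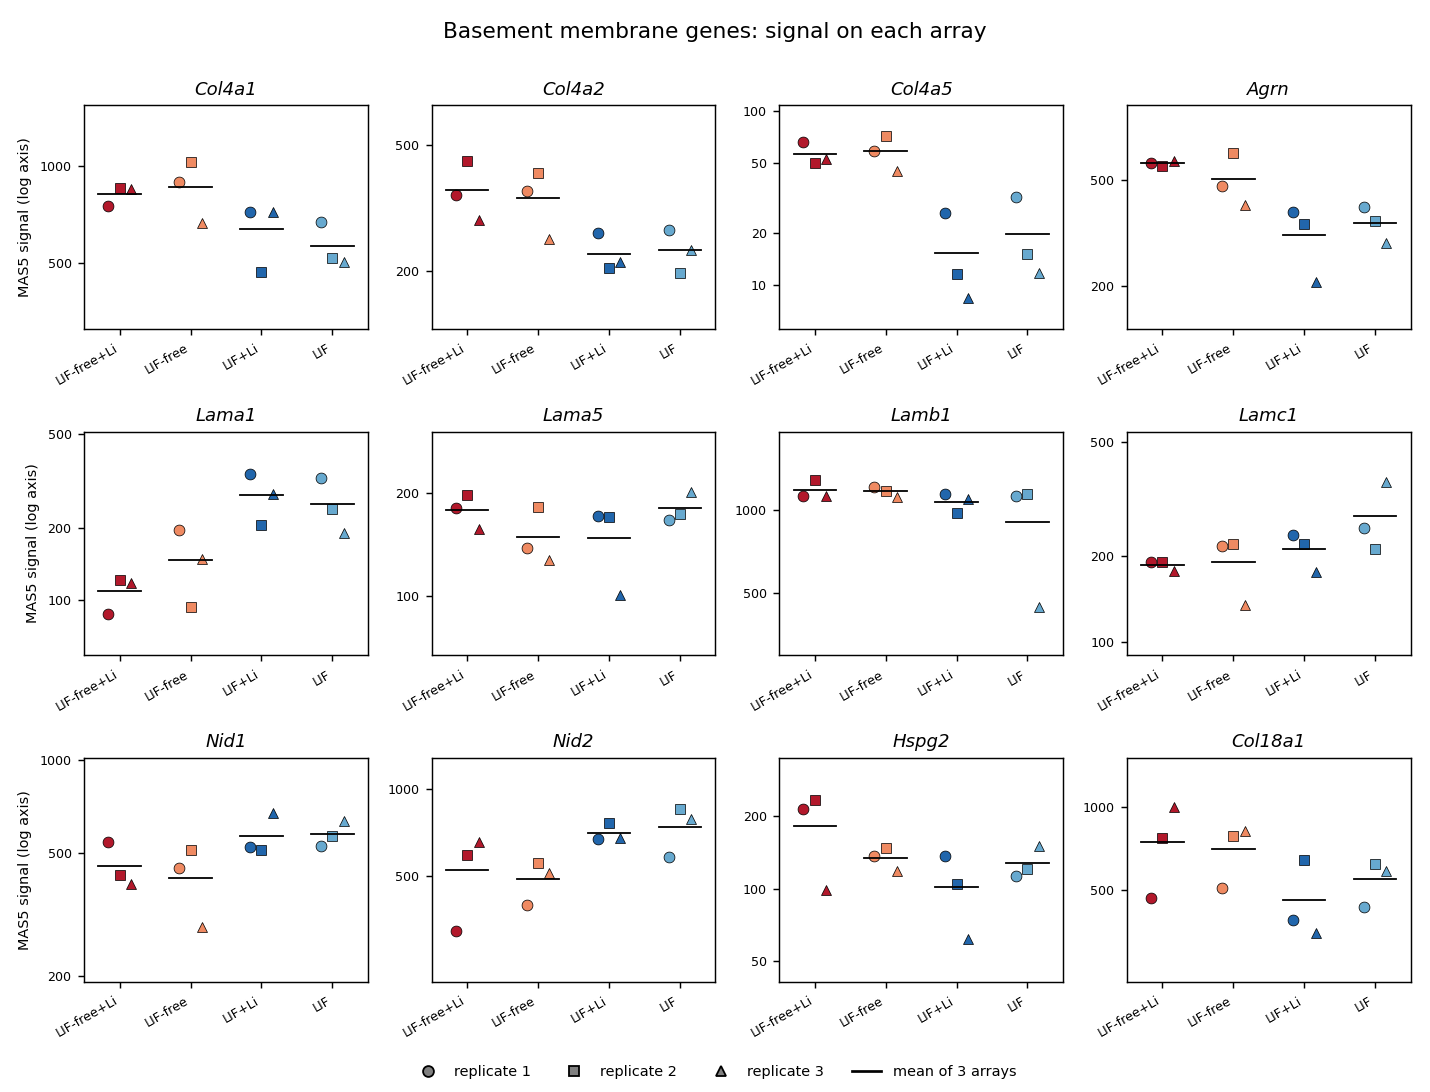
Signal (MAS5, log axis) of 12 basement membrane genes on each array, by condition on the horizontal axis, with 1 point per array, a marker shape per replicate number and a line at the mean of 3 arrays. Col4a5 and Agrn show no overlap between the 6 arrays without LIF and the 6 with LIF, Lama1 lies lower without LIF, and Lamb1 is level apart from LIF replicate 3 at 443.

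Sparc was the brightest member by mean log2 signal. It had signals of 2156, 2356 and 2059 in LIF-free+Li cultures and 2203, 2113 and 2667 in LIF-free cultures, against 1282, 1259 and 1851 in LIF+Li cultures and 1357, 1022 and 1383 in LIF cultures. The lowest array without LIF, at 2059, was above the highest with LIF, at 1851. Sparc was 1.68-fold higher without LIF in the averaged comparison (log2 0.75, 95% interval 0.49 to 1.01, limma adjusted p = 0.000692), with no array whose removal ended that call. A second Sparc probe set moved by 0.69 (adjusted p = 0.000268). Another, dim set (mean signal 8.80 without LIF and 11.1 with LIF) moved by -0.25 (adjusted p = 0.749), and when the 3 sets were averaged into 1 value the call ended (adjusted p = 0.108). Fn1 had signals of 2083, 2337 and 1076 in LIF-free+Li cultures and 2168, 1879.7 and 1139 in LIF-free cultures, against 1728, 1637 and 1175 in LIF+Li cultures and 1532, 1624 and 1569 in LIF cultures. Replicate 3 was the lowest array of LIF-free+Li, LIF-free and LIF+Li cultures, and the averaged change was 0.15 (95% interval -0.28 to 0.58, limma adjusted p = 0.651).

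Of the 11 fibrillar collagen genes, 9 were tested, 4 rose without LIF and 2 fell, where 17.4% and 13.5% of all genes tested did. Apart from Col5a1 they were dim, with no array above 60.9, and their folds rest on values near the filter signal. Col5a1, a chain that starts and limits the width of type I fibrils, had the smallest adjusted p of all 43 members. Its signal was 242, 297 and 160.1 in LIF-free+Li cultures and 219, 226 and 182 in LIF-free cultures, against 69.4, 37.4 and 49.5 in LIF+Li cultures and 122, 48.5 and 53.0 in LIF cultures. All 6 arrays without LIF were above all 6 with LIF, and the averaged change was 3.70-fold (log2 1.89, 95% interval 1.37 to 2.41, limma adjusted p = 0.000156). Its other tested probe sets moved by 1.42 and 3.35, both called (adjusted p = 0.000937 and 0.000382).

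The other type V chains went the other way. Col5a2, which pairs with Col5a1 in the common type V trimer, had signals of 13.1, 4.48 and 6.27 in LIF-free+Li cultures and 19.5, 7.29 and 9.13 in LIF-free cultures, against 30.3, 13.9 and 14.5 in LIF+Li cultures and 39.2, 18.5 and 20.4 in LIF cultures. It was 2.39-fold lower without LIF (log2 -1.26, 95% interval -2.09 to -0.42, limma adjusted p = 0.0303). Replicate 1 was the highest array in every condition, and single arrays overlapped. Col5a3 had signals of 18.7, 6.84 and 5.05 in LIF-free+Li cultures and 8.21, 17.9 and 9.26 in LIF-free cultures, against 15.9, 15.8 and 16.9 in LIF+Li cultures and 20.2, 26.3 and 26.8 in LIF cultures and was 2.03-fold lower (log2 -1.02, 95% interval -1.77 to -0.27, limma adjusted p = 0.0484). Both calls were at the edge. With no filter on low values the adjusted p was 0.0584 for Col5a2 and 0.0946 for Col5a3. The Col5a2 call also ended without LIF-free+Li replicate 2 (0.0728), LIF-free+Li replicate 3 (0.0548), LIF-free replicate 2 (0.0756), LIF-free replicate 3 (0.0627), LIF+Li replicate 1 (0.0707) or LIF replicate 1 (0.0664). That of Col5a3 ended without any 1 of 10 arrays, and it stayed only without LIF-free replicate 2 or LIF-free+Li replicate 1.

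Col3a1, the chain of type III fibrils of skin and vessels, had signals of 60.9, 33.2 and 27.5 in LIF-free+Li cultures and 39.2, 25.3 and 16.7 in LIF-free cultures, against 9.07, 3.06 and 5.05 in LIF+Li cultures and 21.8, 4.66 and 15.6 in LIF cultures. It was 4.01-fold higher without LIF (95% interval of the log2 change 1.08 to 2.93, limma adjusted p = 0.00435). The Col3a1 mean in LIF+Li cultures, 5.72, lay under the filter signal, so the size of this change rests in part on values near background. Every array with lithium and no LIF was above every LIF+Li array, whereas 1 LIF array (21.8) was above the lowest LIF-free array (16.7). Col1a1, a chain of type I collagen, had signals of 40.8, 18.3 and 13.9 in LIF-free+Li cultures and 25.5, 16.5 and 8.91 in LIF-free cultures, against 8.10, 2.19 and 5.34 in LIF+Li cultures and 16.7, 1.31 and 1.95 in LIF cultures. It was called higher without LIF (limma adjusted p = 0.0213), but its mean over the LIF arrays, 5.94, lay under the filter signal, so it passed the filter through the arrays where it was high. No fold is given, and the call is not support. Col1a1 lost its call when LIF-free+Li replicate 1 (adjusted p = 0.0584), LIF-free replicate 1 (0.0537), LIF+Li replicate 2 (0.0557) or LIF replicate 2 (0.0528) was left out. Its partner chain Col1a2 was not called. Col1a2 had signals of 22.3, 33.9 and 36.1 in LIF-free+Li cultures and 32.0, 28.1 and 32.7 in LIF-free cultures, against 38.9, 21.6 and 20.8 in LIF+Li cultures and 55.5, 23.9 and 25.9 in LIF cultures and a change of 0.07 (95% interval -0.49 to 0.63, limma adjusted p = 0.887).

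Col2a1, the collagen of cartilage and notochord, had signals of 16.6, 35.4 and 32.1 in LIF-free+Li cultures and 28.1, 20.7 and 11.1 in LIF-free cultures, against 13.4, 9.31 and 0.730 in LIF+Li cultures and 4.37, 2.38 and 2.43 in LIF cultures. It was called higher without LIF (limma adjusted p = 0.00682), again with a mean over the LIF arrays (5.44) under the filter signal, and the same limit holds. Only LIF+Li replicate 1 reached into the range of the arrays without LIF. A gene that passed the filter only through the condition in which it is high had to differ. This applies to Col1a1 and Col2a1 and, on the mean log2 scale of the filter, to Col9a1. Of the uncalled members, Lamc3 and Col8a2 had arithmetic means over the LIF arrays (6.02 and 6.37), and Col9a3 one over the LIF-free arrays (6.94), under the filter signal. On the mean log2 scale, Lama3 without LIF and Col12a1 and Col14a1 with LIF also lay under it. The sizes of the changes of all these members rest on values near background. Col11a1, a cartilage fibril chain, had signals of 25.2, 24.3 and 24.9 in LIF-free+Li cultures and 17.9, 21.4 and 23.0 in LIF-free cultures, against 18.1, 7.99 and 13.4 in LIF+Li cultures and 25.1, 10.7 and 6.67 in LIF cultures. Its change of 0.88 (95% interval 0.17 to 1.59) was not called (adjusted p = 0.0705). Col27a1 changed by -0.16, and Col11a2 and Col24a1 were not tested.

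Fibroblasts, which make fibrillar collagens and serve as feeder cells, were followed by 12 markers. Of these 7 were tested, 4 were higher without LIF (Vim, Twist1, Twist2 and Postn) and 1 lower (Thy1), where 17.4% and 13.5% of all genes tested were. Twist2 had a mean of 6.26 in LIF cultures and Postn one of 4.38 in LIF+Li cultures, under the filter signal. The calls of Twist2 and Postn therefore rest on values near background. The summed signal of the 12 markers ranged over 2246 to 3870 in LIF-free+Li, 2273 to 4110 in LIF-free, 1055 to 1621 in LIF+Li and 852 to 2211 in LIF cultures, and Vim held most of it. Dcn, Lum, Prrx1, S100a4 and Fap were not bright enough to be tested. Trophoblast markers were higher in 7 of 7 tested, with sums of 1511 to 1649.8 in LIF-free+Li, 1395 to 1771 in LIF-free, 723 to 796 in LIF+Li and 599 to 860.3 in LIF cultures, and mesoderm and endothelium markers in 2 of 6 with 1 lower. Visceral endoderm markers were higher in 1 of 6 and lower in 1 of 6. The visceral endoderm marker Ttr and the mesoderm marker Kdr had LIF+Li means of 3.61 and 3.83, under the filter signal. Their changes rest on values near background. The part of any of these cell types in the collagen changes was not tested.

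Fibril-associated collagens sit on the surface of fibrils. Of the 9 genes, 7 were tested, 1 rose and none fell, where 17.4% and 13.5% of all genes tested did. Col9a1, which coats type II fibrils, had signals of 42.2, 16.4 and 10.6 in LIF-free+Li cultures and 27.1, 17.1 and 12.4 in LIF-free cultures, against 6.33, 3.58 and 4.35 in LIF+Li cultures and 17.7, 10.3 and 9.85 in LIF cultures. It was called higher without LIF in the averaged comparison (limma adjusted p = 0.0244), but its mean log2 over the LIF arrays lay just under the filter. As for Col1a1, no fold is given and the call is not support. Its other probe set changed by 0.04 (adjusted p = 0.968), and the mean of both sets was not called (adjusted p = 0.165). The call also ended without LIF-free+Li replicate 1 (0.0631), LIF-free replicate 1 (0.0654), LIF+Li replicate 2 (0.0567) or LIF replicate 2 (0.0564). The other 6 had averaged log2 changes of -1.28 (Col9a3) to 0.99 (Col12a1), with none called.

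Network, beaded-filament and anchoring collagens numbered 10, of which 6 were tested, 1 rose and none fell. The shares of all genes tested were 17.4% and 13.5%. Col6a1, a chain of the beaded filaments around cells, had signals of 27.0, 33.8 and 28.1 in LIF-free+Li cultures and 23.3, 21.8 and 22.6 in LIF-free cultures, against 9.51, 10.1 and 7.33 in LIF+Li cultures and 10.8, 8.26 and 16.1 in LIF cultures. The highest array with LIF was 16.1 and the lowest without LIF 21.8. The averaged change was 2.57-fold (log2 1.36, 95% interval 0.84 to 1.89, limma adjusted p = 0.00147). Its partner chains were not called: Col6a2 changed by 0.54 (adjusted p = 0.118) and Col6a3 by -0.049 (adjusted p = 0.945). Of the transmembrane collagens, Col13a1 and Col23a1 were tested and not called, with changes of -0.42 and 0.67. The members not tested because of low signal were Col4a3, Col4a4, Lama2, Lama4, Col15a1, Col11a2, Col24a1, Col9a2, Col19a1, Col6a4, Col6a5, Col10a1, Col26a1, Col17a1 and Col25a1, with no array above 18.8.

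**Figure D2:**
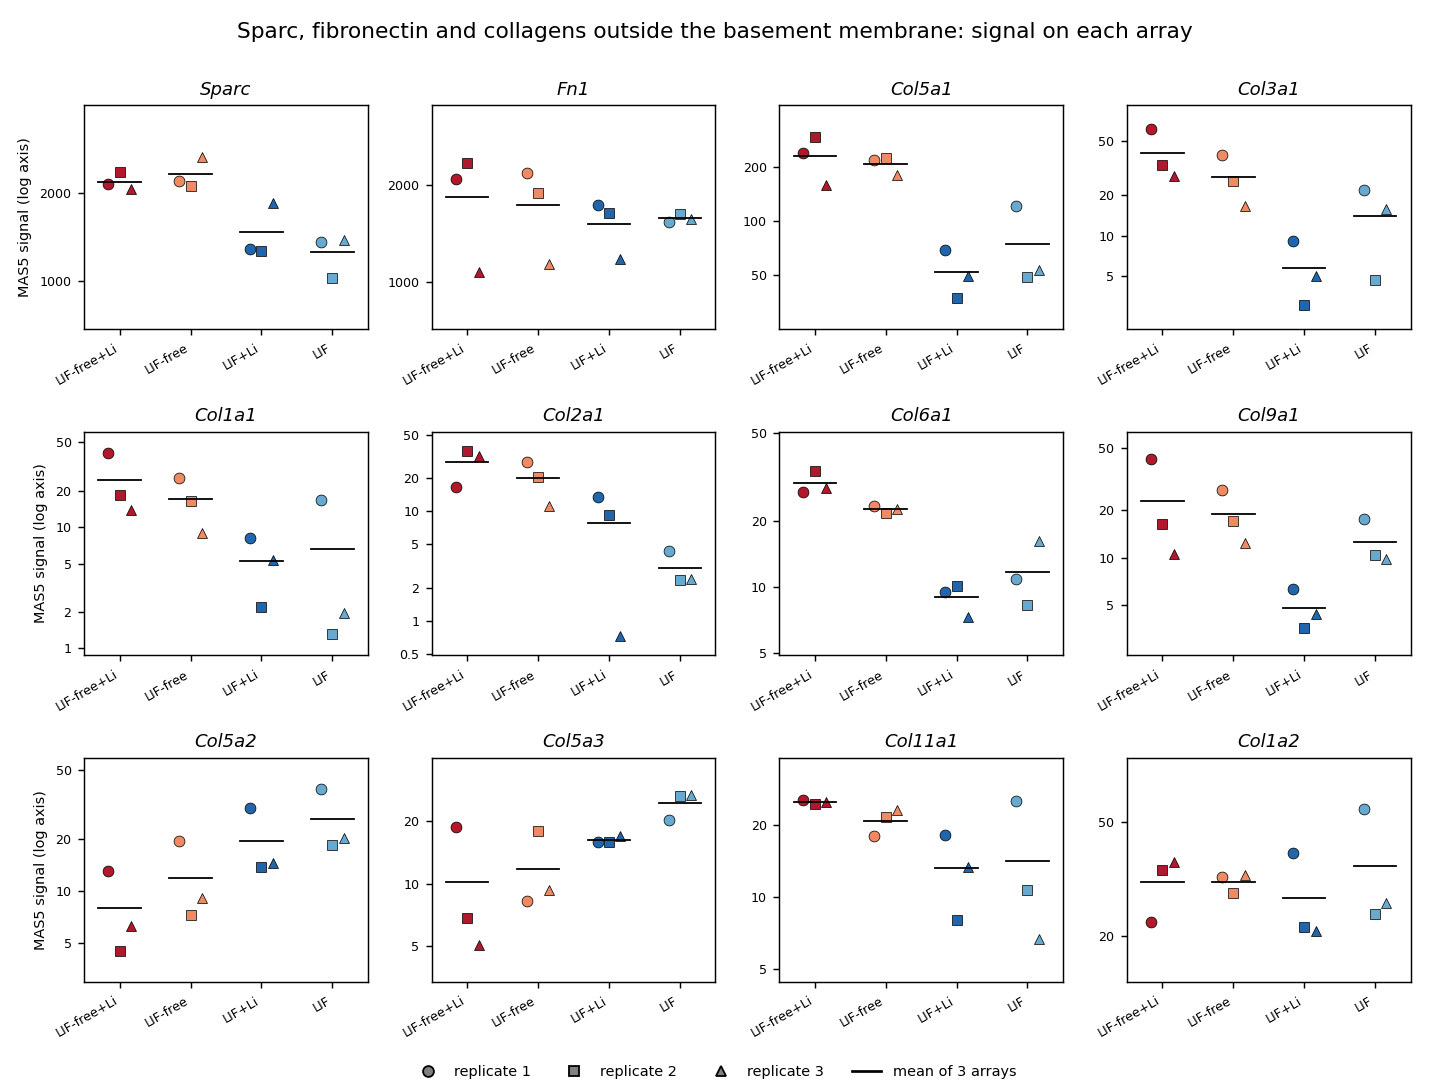
Signal (MAS5, log axis) of Sparc, Fn1 and 10 collagens outside the basement membrane on each array, by condition, with 1 point per array, a marker shape per replicate number and a line at the mean of 3 arrays. Sparc, Col5a1 and Col6a1 show no overlap between arrays without and with LIF, Col5a2 and Col5a3 lie lower without LIF, and replicate 1 is the highest array of every condition for Col1a1, Col3a1, Col9a1 and Col5a2.

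Some members were highest at the same replicate number in all 4 conditions, as were some of all genes tested. Col1a1, Col3a1, Col5a2, Col9a1 and Col22a1, 5 of the 43 members (11.6%), were highest in replicate 1 in all 4 conditions, and 6.88% of all genes tested were. Replicate 2 or replicate 3 was highest throughout for 1 member each (Col20a1 and Lama3). Whether equal numbers mark cultures started together is not stated in the labels.

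**Figure D3:**
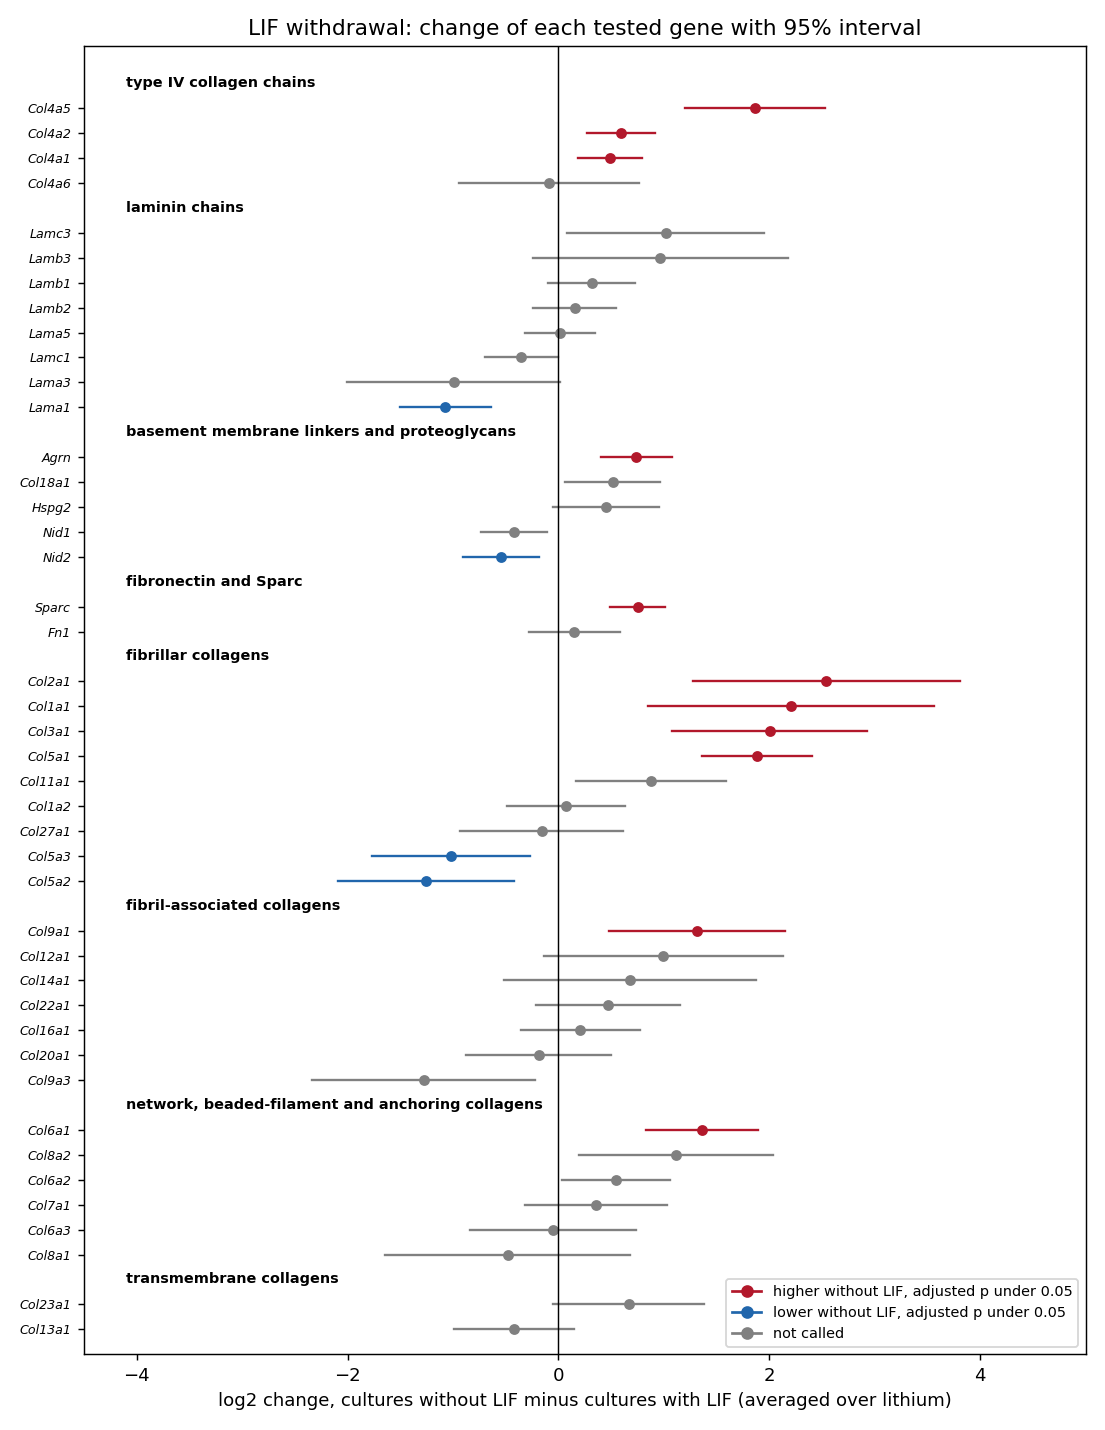
Log2 change without LIF against with LIF, averaged over lithium, for the 43 tested genes by role, with points at the estimate and bars over the 95% interval, coloured by call. The 11 genes called higher and 4 called lower are spread over 7 of the 8 roles, and laminin chains have Lama1 as their only call.

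Without lithium (LIF-free against LIF), Sparc, Col5a1 and Col4a5 were called higher and no member lower, 3 of 43, where 12.6% of all genes tested were called (7.47% higher and 5.09% lower). Sparc was 1.86-fold higher (adjusted p = 0.00679), Col5a1 3.06-fold (adjusted p = 0.0119) and Col4a5 3.22-fold (adjusted p = 0.03). The replicate numbers were taken to pair the arrays of these conditions. With the number as a block 7 members were called higher and 4 lower, where the same fit called 13.4% and 10.7% of all genes tested (24.1% in either direction). The added ones were Agrn (adjusted p = 0.039), Col4a1 (0.0395), Col1a1 (0.029) and Col2a1 (0.02) as higher and Lama1 (0.0283), Nid2 (0.0142), Col5a2 (0.032) and the epithelial chain Lama3 (0.0156) as lower. Col1a1 and Col2a1 had LIF means of 6.66 and 3.06, and Lama3 had a LIF-free mean of 6.43. All lay under the filter signal, so the calls of Col1a1, Col2a1 and Lama3 are not support. The call of Col5a1 ended without LIF-free replicate 2 (0.0536) or LIF replicate 2 (0.0605), and that of Col4a5 without LIF-free replicate 1 (0.0824), LIF-free replicate 2 (0.117), LIF-free replicate 3 (0.0504), LIF replicate 2 (0.105) or LIF replicate 3 (0.106). Without the intensity trend the adjusted p of Col4a5 was 0.0519, and in a fit to these conditions alone 0.0537. Averaging the 3 Sparc sets gave an adjusted p of 0.564. Values of the 2 conditions did not overlap for 6 tested members higher and 5 lower, where 17.2% and 15% of all genes tested did so.

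With lithium (LIF-free+Li against LIF+Li), 7 members were called higher and 1 lower, where 9.48% and 6.57% of all genes tested were (16.1% in either direction). Col5a1 was 4.48-fold higher (adjusted p = 0.00224), Col6a1 3.31-fold (0.00725), Col4a5 4.11-fold (0.0101), Agrn 1.92-fold (0.0153) and Sparc 1.52-fold (0.0355). Col3a1 (adjusted p = 0.00939) and Col9a1 (0.0265) were also called higher, but from LIF+Li means of 5.72 and 4.75, under the filter signal, and no fold is given. Lama1 was 2.51-fold lower (adjusted p = 0.00964). Values did not overlap for 16 tested members higher and 4 lower, where 22.8% and 17% of all genes tested did so. The call of Sparc ended on median-centred arrays (adjusted p = 0.632), as did that of Agrn (0.223). Centring moved the median of all probe sets in this comparison to -0.23, against 0.11 as deposited, and without lithium to 0.13, against -0.07. On centred arrays the log2 change with lithium was 0.26 for Sparc and 0.60 for Agrn.

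The Sparc call with lithium also ended with no filter (adjusted p = 0.0586), without the intensity trend (0.0842) and with its sets averaged (0.166). That of Col9a1 ended with a pseudocount of 16 (adjusted p = 0.0529), with no filter (0.0527), in a fit to these conditions alone (0.0653) and with its sets averaged (0.185). Several of these calls rested on single arrays. That of Sparc ended without LIF-free+Li replicate 1 (adjusted p = 0.0956), LIF-free+Li replicate 2 (0.129), LIF-free+Li replicate 3 (0.0534), LIF+Li replicate 1 (0.0932) or LIF+Li replicate 2 (0.136). That of Agrn ended without LIF-free+Li replicate 1 (0.0541), LIF-free+Li replicate 2 (0.0525) or LIF+Li replicate 3 (0.0645). Col9a1 was no longer called without LIF-free+Li replicate 1 (0.127), LIF-free+Li replicate 2 (0.0652), LIF+Li replicate 2 (0.0911) or LIF+Li replicate 3 (0.0866), and Col4a5 without LIF+Li replicate 3 (0.0527). The calls of Col5a1, Col6a1 and Lama1 held whichever array was left out. That of Col3a1 also held, but its LIF+Li mean of 5.72 lay under the filter signal, and the call is not support.

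In the averaged comparison the block added Col18a1 (adjusted p = 0.00983), Col11a1 (0.0396) and Col8a2 (0.0451) as higher and Nid1 (0.0338), Lama3 (0.0359) and Col9a3 (0.0427) as lower, none of which passed without it. Col8a2 had a mean of 6.37 over the arrays with LIF and Col9a3 one of 6.94 over the arrays without LIF. Lama3 had a mean of 6.43 in LIF-free cultures. These means lay under the filter signal, and the calls of Col8a2, Col9a3 and Lama3 are not support. The fit with the block called 21 of the 43 members and 39.8% of all genes tested. This comparison includes LIF-free+Li and LIF+Li arrays, whose replicate 2 deviations correlated at 0.097, just under the minimum of 0.1 set for pairing.

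The 2 withdrawal comparisons share no arrays. The log2 change had the same sign in both for 35 of the 43 members, 25 higher and 10 lower, which is 81.4% beside 77.1% of all genes tested. The median change of the members was 0.20 without lithium and 0.56 with lithium, beside -0.017 and 0.068 over all genes tested. The largest gap was that of Col3a1, with a change of 2.88 with lithium, near background on the LIF+Li side, and 1.13 without. The test of that difference, the interaction, gave 1.75 (95% interval -0.10 to 3.60, limma unadjusted p = 0.062, adjusted p = 0.999). No member had an interaction call, and none had an unadjusted p under 0.05, where 0% of all genes tested were called and 2.17% had an unadjusted p under 0.05.

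**Figure D4:**
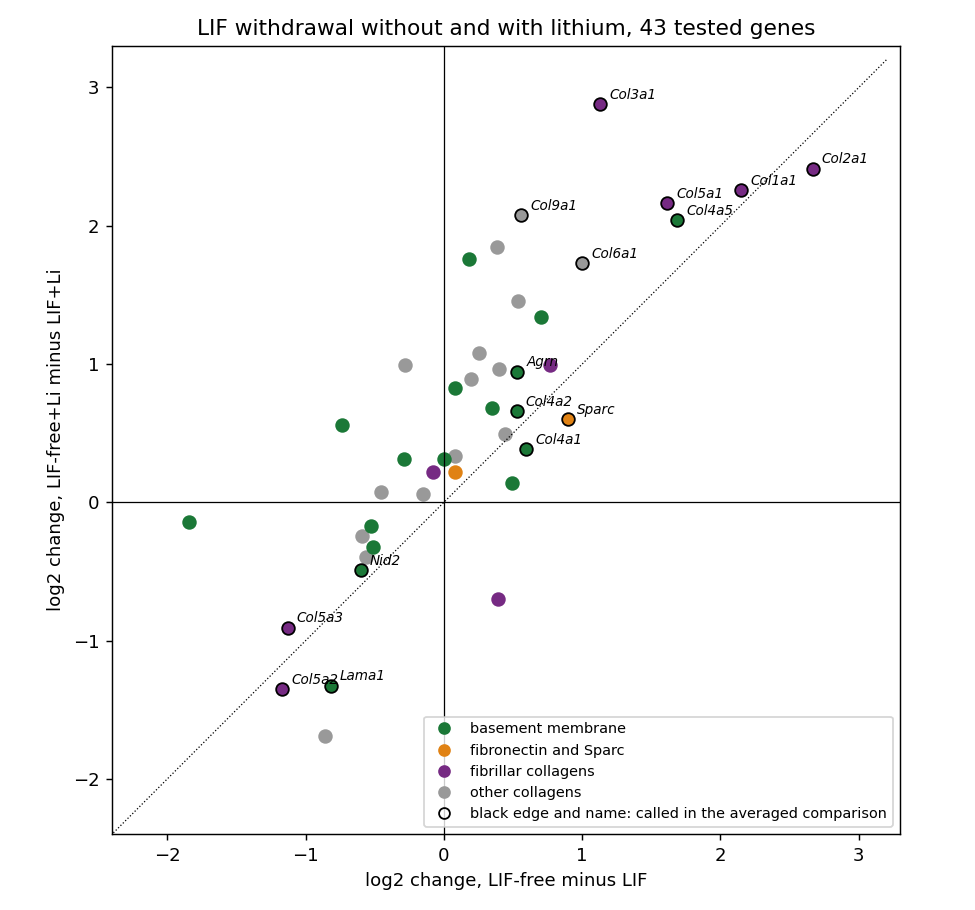
Log2 change without lithium (LIF-free minus LIF, horizontal) against that with lithium (LIF-free+Li minus LIF+Li, vertical) for the 43 tested genes, coloured by class, with genes called in the averaged comparison outlined and named and a dotted line of equal change. Of the 43 genes 35 lie in the quadrants of equal sign, and Col3a1 is farthest above the line.

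In the lithium comparison with LIF (LIF+Li against LIF), no member passed the test, and 0% of all genes tested did (limma). At an unadjusted p under 0.05 there were 2 members, both lower with lithium, Col9a1 and Col6a2, where 2.36% of all genes tested had one. Col9a1 changed by -1.40 (95% interval -2.58 to -0.22, limma adjusted p = 0.999) and Col6a2 by -0.84 (95% interval -1.57 to -0.12, limma adjusted p = 0.999). Values of the conditions did not overlap for 2 tested members, both lower (Col5a3 and Col9a1), where 2.02% of all genes tested were higher and 4.54% lower without overlap. Without LIF (LIF-free+Li against LIF-free), 0% of all genes were called, 1.19% had an unadjusted p under 0.05, and 1 member did, Col27a1. It changed by -1.42 (95% interval -2.51 to -0.33, limma adjusted p = 1). Values did not overlap for 2 tested members, both higher with lithium (Col11a1 and Col6a1), where 3.42% of all genes tested were higher and 2.8% lower without overlap. The fit with the replicate number as a block also gave 0 calls among the members in either lithium comparison.

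The intervals show what these arrays could have resolved. For Sparc the 95% interval of the lithium change was -0.45 to 0.28 without LIF and -0.15 to 0.58 with LIF. For Col4a1 it was -0.48 to 0.37 without LIF and -0.27 to 0.58 with LIF, and for Lama1 -0.99 to 0.23 and -0.48 to 0.74 in the same order of conditions. For dimmer genes the intervals were wider, as for Col2a1, with -1.27 to 2.30 without LIF and -1.02 to 2.56 with LIF. A lithium change of 2-fold either way is therefore inside the interval of Col2a1 in both backgrounds and outside that of Sparc.

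**Figure D5:**
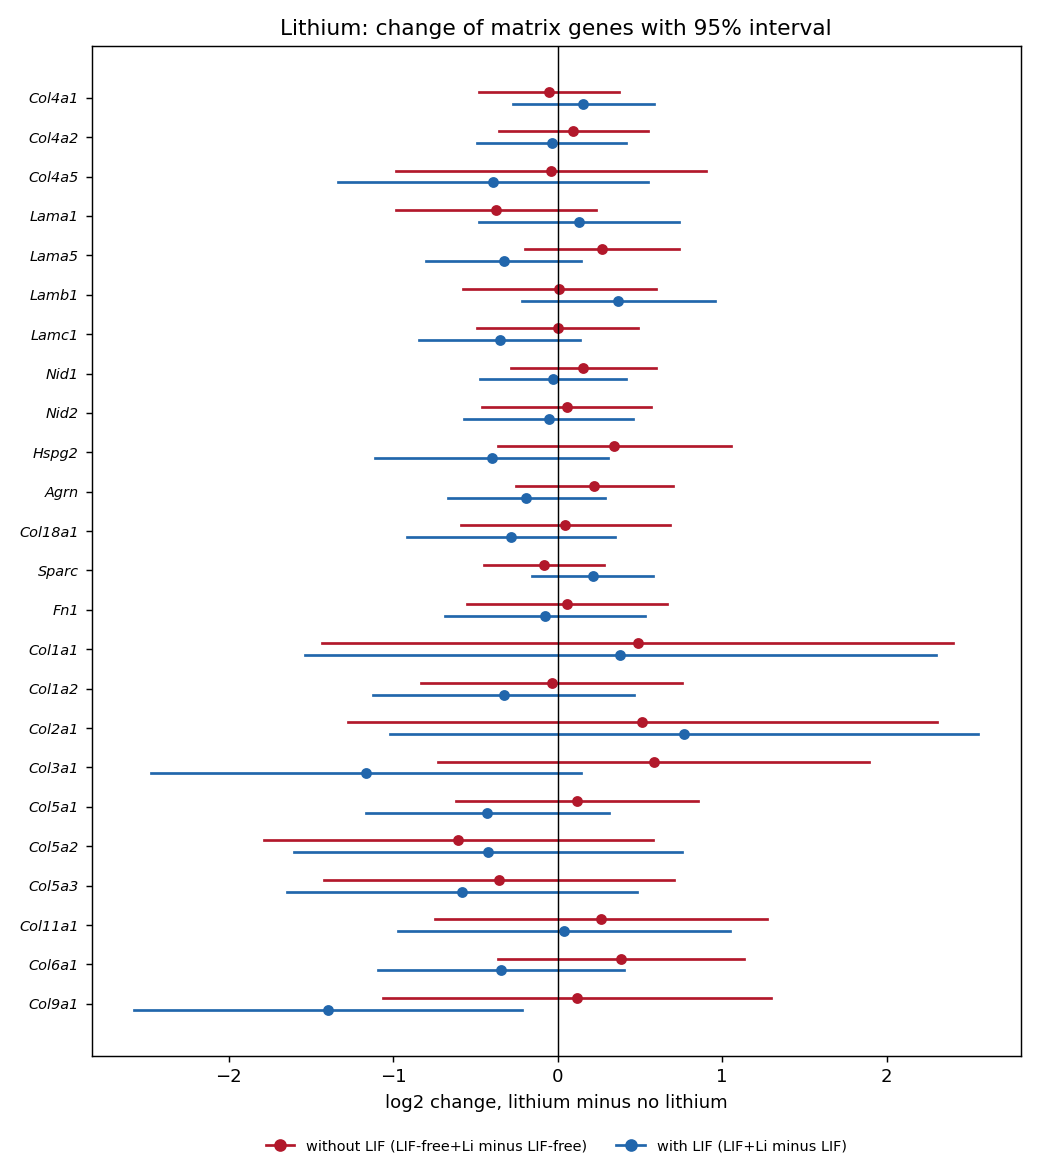
Log2 change with lithium against without lithium for 24 matrix genes, in cultures without LIF (upper bar of each pair) and with LIF (lower bar), with points at the estimate and bars over the 95% interval. All intervals include 0 except that of Col9a1 with LIF, which did not pass the adjusted test.

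Of the members, 18 had further tested probe sets, 22 in all, and 18 of these 22 moved in the same direction as the brightest set in the averaged comparison. The 4 that moved the other way belonged to Sparc, Fn1, Lamb1 and Col27a1, and none of them was called in the opposite direction. Col4a1 had a second set with a change of 0.52 (adjusted p = 0.00673), and Col4a5 one with 0.94 (adjusted p = 0.0276). Col1a1 had one with 1.63 that did not pass (adjusted p = 0.0536).

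Genes that make, bind and cut the matrix were followed by 6 lists, to be read against the 17.4% of all genes tested that were higher and 13.5% that were lower. Of 18 tested enzymes and chaperones of collagen maturation, 5 were higher and 4 lower without LIF in the averaged comparison. Serpinh1, the collagen-specific chaperone of the endoplasmic reticulum, was higher (mean signal 1141 without LIF and 556 with LIF, log2 1.05, limma adjusted p = 7e-05). Pcolce and Pcolce2, which enhance cleavage of the procollagen C-terminal propeptide, were both lower, by log2 changes of -1.54 and -2.06 (adjusted p = 1.94e-05 and 4.16e-05). P3h4, a partner of collagen-modifying hydroxylases, changed by 0.41 (adjusted p = 0.031). Of 6 crosslinking enzymes 1 was higher, Pxdn, a peroxidase that crosslinks type IV collagen (mean signal 411 without LIF and 142 with LIF, log2 1.59, limma adjusted p = 0.00019). Tgm2, a transglutaminase, changed by -0.95 and was not called (adjusted p = 0.0555).

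Matrix receptors were higher in 11 of 18 tested and lower in none, with a median log2 change of 0.70 over the 18. They included Ddr1, a collagen-activated tyrosine kinase (log2 1.11, limma adjusted p = 9.17e-05), Itgb1 and Itgb5, integrin beta chains (1.01 and 0.99), and Dag1, which encodes dystroglycan, a receptor for laminin and agrin (0.51). Of 18 tested proteases and inhibitors 9 were higher and 3 lower. Mmp14, a membrane-bound collagenase, and Timp2, an inhibitor that also takes part in activating its partner protease, were higher (1.18 and 1.13), whereas the inhibitor Timp1 was lower (-0.82). Of 33 other matrix glycoproteins and proteoglycans tested 11 were higher and 2 lower, among them Tinagl1, a basement membrane-associated protein (1.29), Fras1, a protein of epidermal basement membranes (1.63), and the thrombospondins Thbs1 and Thbs3 (1.11 and 0.94). Of 14 tested members of the Tgf-beta pathway that bear on matrix genes 7 were higher and 3 lower, with Tgfb2 at 2.24, its receptors Tgfbr2 and Tgfbr3 at 1.21 and 1.53, and the transducer Smad3 at 0.98.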

How the data were processed

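RNA was hybridised to 12 Affymetrix mouse arrays. For each probe set the authors deposited an intensity, the linear MAS5 signal, per the submitters' processing notes. Version, target and settings are not given in the sources used here. The design text speaks of 3 experiments per replicate without saying whether RNA was pooled. Groups came from the titles.

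Values were floored at 1 (0.146% of those tested) and log2-transformed. Of 45101 probe sets, 64 controls were left out, and 27022 whose mean log2 passed the 40th percentile (signal 7.52) were tested in limma 3.58.1 (R 4.3.3, lmFit, eBayes with an intensity trend) in 1 model with 4 condition means, 8 residual degrees of freedom and 6 comparisons, two-sided, with Benjamini-Hochberg adjustment at 0.05. Exact permutation of 3 against 3 arrays cannot go below p = 0.1. Platform annotation gave 1 symbol to 34945 probe sets, several to 932 and none to 9160. The steps were tested on simulated data. Figures were drawn with matplotlib 3.10.9 in Python 3.11.15.

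The members, gene lists and markers were chosen with earlier results of these data known. Per-array values are given for a set of core genes whatever their values and for every other member called in at least 1 comparison; of each pathway list, up to 4 genes with the smallest p in either withdrawal comparison are named. Deviations of same-numbered arrays correlated at 0.438, 0.137 and 0.339 between LIF-free and LIF, 0.499, 0.139 and 0.321 between LIF+Li and LIF, and 0.462, 0.111 and 0.3 between LIF-free+Li and LIF-free cultures for replicates 1, 2 and 3, so the numbers were taken to pair those arrays. Between LIF-free+Li and LIF+Li cultures they correlated at 0.451, 0.097 and 0.379. A minimum of 0.1 was set for each replicate, so those arrays were not taken as paired. The value of 0.097 just missed that minimum and does not show that the arrays are unpaired. The pairings that were taken also link these arrays, through the LIF-free and LIF cultures, so the minimum treats this comparison unevenly. Alternatives were quantile scaling, median centring, a pseudocount of 16, no filter or a 60th percentile filter, and the replicate block. Others were no trend, array weights, a fit to the compared conditions alone, averaging all sets of a gene, and leaving out each array. The last was the brightest set whose name does not end in _x_at. It dropped no other kind of set, so the _s_at sets of Lamb1 and Col18a1 stayed in.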

Additional observations from a re-analysis of the deposited data

How the results depend on the processing

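Of the members called on the values as deposited, the count without lithium (3) was 5 on quantile-scaled arrays, 11 with the replicate block and 14 with array weights, while the share of all probe sets called, 9.31% as deposited, was 10.2%, 19.5% and 29.1%. Leaving out 1 array gave 1 to 5, with 1 without LIF-free replicate 2 or LIF replicate 2 and 5 without LIF replicate 1. With lithium the count (8) was 16 with the replicate block and 17 with array weights (22% and 25.5% of all probe sets, against 12.5% as deposited), and leaving out 1 array gave 5 to 11, the 5 without LIF-free+Li replicate 1 or LIF+Li replicate 3. In the averaged comparison the count (15) was 9 of 19 tested with the 60th percentile filter, which tests fewer genes, 23 with array weights, 21 with the replicate block and 10 to 16 without 1 array. The share of all probe sets called, 24.7% as deposited, was 33.7% with that filter, 40.2% with the weights and 33.6% with the block. Median centring lowered the share in each comparison, to 5.77% without lithium, 5.51% with lithium and 13.7% averaged. With no filter it was 4.42%, 5.76% and 13.3% in the same order, over 45037 probe sets. The array weights were uneven, with LIF replicate 2 at 4.06 and LIF replicate 3 at 0.309. Apart from the filter, the cause was not tested. Lithium and the interaction gave 0 calls among the members under every alternative run, the block included. In the comparison with lithium the block joins arrays that were not taken as paired.

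The changes of sign were in uncalled results. On quantile-scaled arrays Col1a2 was at -0.065 with lithium and -0.037 averaged, and Lama5 at -0.034 averaged. On median-centred arrays Col1a2 was at 0.12 without lithium, -0.13 with lithium and -0.0050 averaged, Lama5 at -0.032 with lithium and -0.063 averaged, Lamb1 at -0.21 with lithium and Fn1 at -0.12 with lithium. With array weights Col1a2 without lithium was at 0.19. Averaging all sets of a gene gave Fn1 -0.31 without lithium and -0.15 averaged, and Col1a2 0.092 without lithium. Leaving out 1 array gave, without lithium, -0.0086 to 0.20 for Hspg2, -0.30 to 0.31 for Col1a2 and -0.11 to 0.36 for Fn1, and averaged, -0.12 to 0.077 for Lama5 and -0.041 to 0.26 for Col1a2. The cause was not tested. Signals near 7.52 limit the dim collagens.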
